A study of Mus musculus with 12 samples.

Results

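Immunoglobulin and B cell genes were followed in whole hearts of mice that had lost CYB5R3, a cytochrome b5 reductase, from their cardiomyocytes. The set of 8 genes was chosen by earlier results of these data, because Igkc and Igj were raised in the knockout hearts, and the remaining 6 were added as immunoglobulin, B cell or plasma cell genes. The count table held 53700 genes, of which 17847 passed the filter on low counts. Of the 8, 7 were matched to an identifier and 5 passed the filter, namely Igkc, Igj, Ighm, Cd79a and Cd79b. Ms4a1 and Mzb1 had counts in all 12 libraries but too few of them to pass the filter. Igha was not paired with an identifier in the tables used here and was not analysed under that name.

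RNA of 6 ac-WT mice (CYB5R3wt/wt, Myh6-CreERT2) and 6 ac-CYB5R3–KO mice (CYB5R3fl/fl, Myh6-CreERT2) was sequenced, 1 library per heart. Both groups carried the Cre transgene, which the promoter of the cardiomyocyte gene Myh6 drives and tamoxifen activates, and both received tamoxifen daily (33 mg/kg) over 5 days, starting when the mice were 10 to 13 weeks old. Hearts were taken 5 days after the last dose. Cre acts in cardiomyocytes in this model, so no B or plasma cell was meant to lose Cyb5r3, and the whole heart holds all of its other cells and its remaining blood.

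B cells carry an immunoglobulin on their surface as part of a receptor, and plasma cells, which arise from them, secrete immunoglobulin in large amounts. Each immunoglobulin pairs heavy chains with light chains of the kappa or lambda kind, and the constant gene of the heavy chain sets the class, such as IgM or IgA. The joining chain links units of IgM and IgA into multimers and is made by cells that secrete them. Plasma cells lower the surface receptor and the B cell proteins that go with it.

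The plot of expression by mouse sets Igkc and Igj, in which the groups lay apart, beside the other genes, in which they overlapped. Igkc encodes the constant region of the kappa light chain and Igj the joining chain, while Ighm, the constant gene of IgM, Cd79a and Cd79b, the signaling subunits of the B cell receptor, and the B cell surface gene Ms4a1 did not separate the groups. In bulk tissue, fewer cells of a type and less RNA per cell cannot be told apart. Expression is given as CPM, the number of counts per 1000000, where each library total is first scaled by the TMM factor of edgeR.

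**Figure D1:**
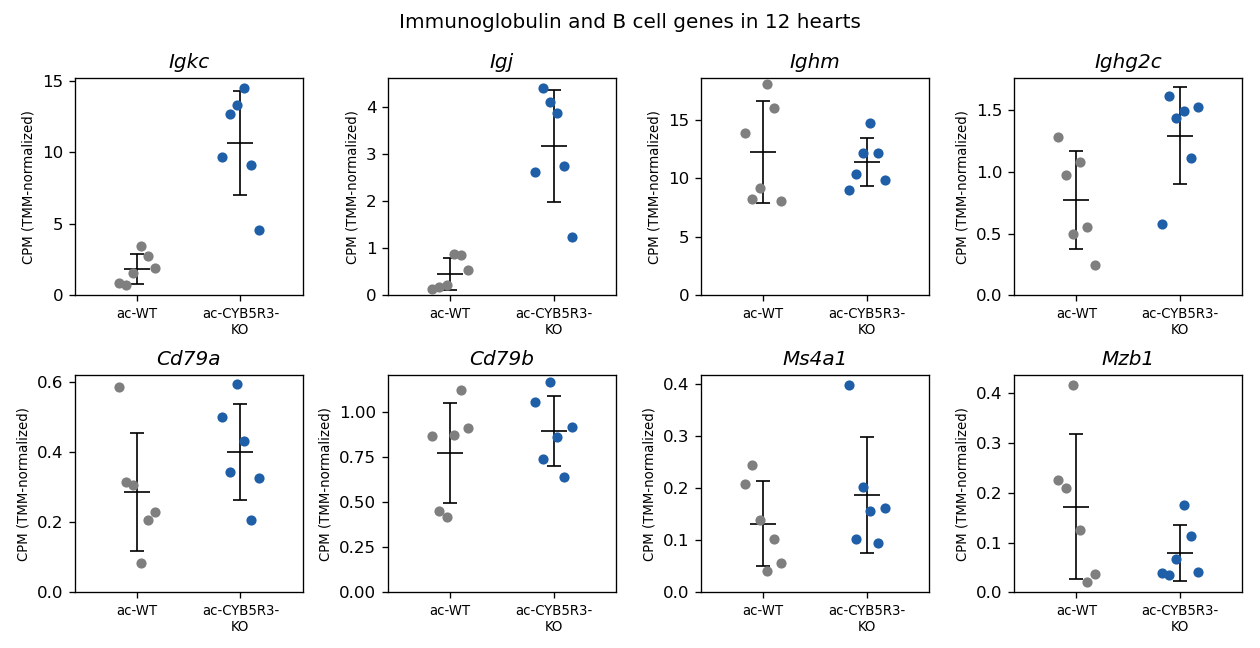
TMM-normalized expression (CPM, vertical axis) of 8 genes in each heart, for 6 ac-WT (gray) and 6 ac-CYB5R3–KO mice (blue), with the mean and the SD as bars. All 6 ac-CYB5R3–KO mice lie above all 6 ac-WT mice in Igkc and Igj, whereas the groups overlap in Ighm, Ighg2c, Cd79a, Cd79b, Ms4a1 and Mzb1.

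The promoter table of RefSeq (GRCm38.p6) held 2 of the 8 genes, Igj (as Jchain) and Cd79a. Both are printed because Igj separated the groups while Cd79a, which B cells also express, did not. Each window runs from 250 bases before the annotated start to 50 bases after it, at chr5:88527848-88528147 on the minus strand for Igj and at chr7:24897247-24897546 on the plus strand for Cd79a, 5′ to 3′. Capitals mark the E-box CAGGTG, or CACCTG where it is read from the other strand.
Igj: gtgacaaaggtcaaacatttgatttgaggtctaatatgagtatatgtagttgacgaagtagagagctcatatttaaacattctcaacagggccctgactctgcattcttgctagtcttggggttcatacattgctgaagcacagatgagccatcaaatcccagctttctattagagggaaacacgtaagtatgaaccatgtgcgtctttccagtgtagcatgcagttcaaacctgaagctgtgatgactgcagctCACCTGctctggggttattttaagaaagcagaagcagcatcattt
Cd79a: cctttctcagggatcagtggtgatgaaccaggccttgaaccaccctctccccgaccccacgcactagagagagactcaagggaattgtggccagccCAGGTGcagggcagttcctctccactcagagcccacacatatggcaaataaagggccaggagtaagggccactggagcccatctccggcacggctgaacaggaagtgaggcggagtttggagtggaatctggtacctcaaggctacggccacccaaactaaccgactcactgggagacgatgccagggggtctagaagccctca
The E-box letters start at base 256 of the Igj window and at base 97 of the Cd79a window. They were found on either strand in 6640 of the 32851 promoters of the table (20.2%). The octamer ATGCAAAT, a motif of immunoglobulin promoters, was found on either strand in 570 promoters (1.74%), and its letters are not in either of these windows.

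Igkc (ENSMUSG00000076609, chromosome 6 from 70676429 to 70676751 on the plus strand in NCBIM37, the mm9 assembly, annotated as an immunoglobulin constant gene) had 47, 21, 56, 165, 133 and 101 counts in ac-WT mice 1 to 6. In ac-CYB5R3–KO mice 1 to 6 it had 487, 737, 789, 739, 484 and 224 counts. Every ac-CYB5R3–KO heart was above every ac-WT heart, and ac-CYB5R3–KO mouse 6 was the lowest of its group. Mean expression in ac-WT mice was 1.87 ± 1.05 CPM and in ac-CYB5R3–KO mice 10.6 ± 3.65 CPM (SD, n = 6 each), which edgeR fitted as a log2 fold change of 2.49 (SE 0.37).

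Igj (ENSMUSG00000067149, chromosome 5 from 88949537 to 88956916 on the minus strand in NCBIM37) had 7, 5, 8, 42, 42 and 28 counts in ac-WT mice 1 to 6. In ac-CYB5R3–KO mice 1 to 6 it had 132, 256, 243, 198, 146 and 61 counts. The groups did not overlap, ac-WT mice 1, 2 and 3 were the lowest, and ac-CYB5R3–KO mouse 6 was again the lowest of its group. Mean expression in ac-WT mice was 0.465 ± 0.340 CPM and in ac-CYB5R3–KO mice 3.17 ± 1.19 CPM (SD, n = 6 each), with a fitted log2 fold change of 2.73 (SE 0.46). Since Igkc and Igj chose the set, these values are a description, and where their calls are counted further on, those calls support nothing.

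Igkc and Igj moved together among mice of the same group. After each group's mean was subtracted, Pearson's r of log2(CPM + 0.5) was 0.955 over the 12 libraries, which share their depth and scaling with both genes. For each 100 counts of Igkc, Igj had from 14.3 to 31.6 among ac-WT mice, with a median of 24.6, and from 26.8 to 34.7 among ac-CYB5R3–KO mice, with a median of 28.7. The ranges of this proportion overlapped between the groups, while those of both transcripts did not. The same measure between Igkc and the B cell genes was lower, at 0.557 with Ighm, 0.388 with Cd79b, -0.33 with Cd79a and -0.46 with Ms4a1.

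**Figure D2:**
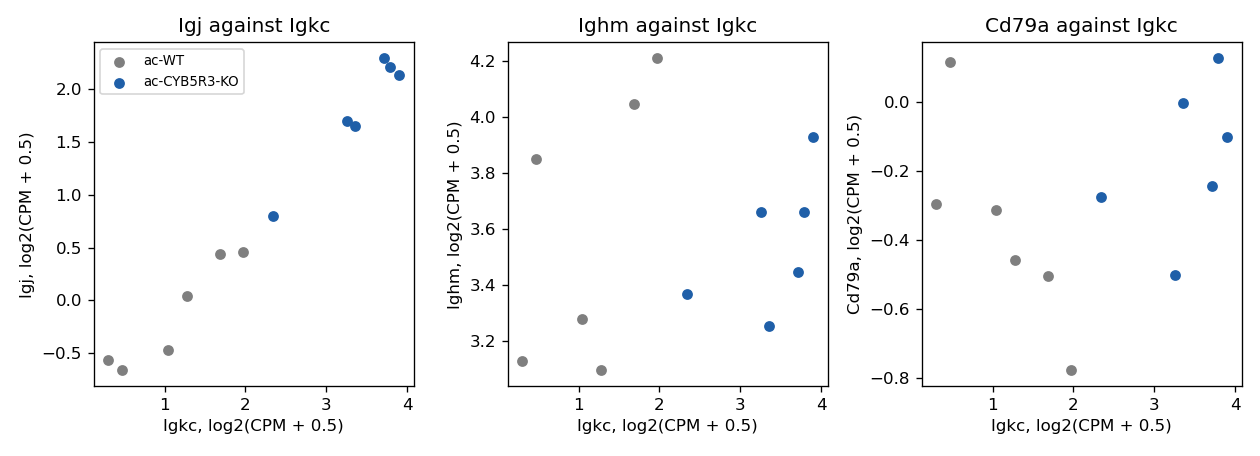
Expression of Igj, Ighm and Cd79a (vertical axes) against that of Igkc (horizontal axis), all as log2(CPM + 0.5), with 1 point for each of 6 ac-WT (gray) and 6 ac-CYB5R3–KO mice (blue). Igj follows Igkc through both groups (r within groups 0.955), while Ighm and Cd79a overlap between the groups (r within groups 0.557 and -0.33).

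Ighm (ENSMUSG00000076617, chromosome 12 from 114659078 to 114660941 on the minus strand in NCBIM37) encodes the heavy chain constant region of IgM. It had 738, 236, 332, 869, 783 and 424 counts in ac-WT mice 1 to 6 and 453, 604, 719, 752, 647 and 483 in ac-CYB5R3–KO mice 1 to 6. The groups overlapped, and ac-WT mice held both the highest and the lowest value. Mean expression in ac-WT mice was 12.2 ± 4.32 CPM and in ac-CYB5R3–KO mice 11.4 ± 2.07 CPM (SD, n = 6 each). The log2 fold change was -0.11 with an SE of 0.21, and the edgeR adjusted p was 0.835. Under total counts in place of TMM this was 0.10, a scaling that moved the median of all genes to 0.26. Igkc had 0.0637 to 0.238 counts per Ighm count in ac-WT hearts (median 0.169) and 0.464 to 1.22 in ac-CYB5R3–KO hearts (median 1.03), a ratio within each library that no scaling changes and in which the groups did not overlap. Since Igkc chose the set, this ratio reuses the selected values and is a description only.

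Cd79a and Cd79b, whose proteins pass on the signal of the B cell receptor, were low and overlapped between groups. Cd79a (ENSMUSG00000003379, chromosome 7 from 25682400 to 25687216 in NCBIM37) had 31, 9, 11, 4, 10 and 12 counts in ac-WT mice and 25, 20, 35, 22, 11 and 16 in ac-CYB5R3–KO mice. Expression was 0.287 ± 0.168 CPM and 0.400 ± 0.137 CPM (SD, n = 6 each), and edgeR gave a log2 fold change of 0.48 with an SE of 0.38 (adjusted p = 0.570). Cd79b (ENSMUSG00000040592, chromosome 11 from 106172655 to 106176076 in NCBIM37) had 46, 13, 15, 42, 55 and 48 counts in ac-WT mice and 53, 43, 69, 44, 34 and 45 in ac-CYB5R3–KO mice. Expression was 0.774 ± 0.280 CPM and 0.897 ± 0.196 CPM (SD, n = 6 each), and edgeR gave a log2 fold change of 0.19 with an SE of 0.26 (adjusted p = 0.741). At these depths the differences were smaller than the spread between mice.

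Ms4a1 encodes CD20, a surface protein of B cells, and Mzb1 a chaperone of the endoplasmic reticulum that helps immunoglobulin to assemble. Ms4a1 (ENSMUSG00000024673, chromosome 19) had 11, 7, 5, 2, 5 and 3 counts in ac-WT mice and 20, 6, 12, 8, 5 and 8 in ac-CYB5R3–KO mice. Mzb1 (ENSMUSG00000024353, chromosome 18) had 12, 6, 15, 6, 1 and 2 counts in ac-WT mice and 2, 2, 4, 9, 6 and 2 in ac-CYB5R3–KO mice. Neither set of values separated the groups, and with so few counts neither gene was part of the main test. Without the filter edgeR gave log2 fold changes of 0.56 for Ms4a1 (adjusted p = 0.581) and -1.03 for Mzb1 (adjusted p = 0.551).

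In edgeR, 2 of the 5 tested genes had an adjusted p under 0.05, both higher, and these were Igkc and Igj. Of all 17847 genes, 18 (0.101%) passed, and 7 (0.0392%) passed as higher. The same 2 of 5 had an unadjusted p under 0.05 and were higher, as were 877 of all genes (4.91%), and in the same 2 every ac-CYB5R3–KO heart lay above every ac-WT heart, as in 91 of all genes (0.51%). The selection used this contrast, so nothing is read from these shares. The median log2 fold change of the 5 was 0.48 and that of all genes -0.0074. The calls of Igkc and Igj depended on which mice were included. With 1 mouse left out in turn, Igkc lost its call in 8 and Igj in 10 of 12 fits, with log2 fold changes from 2.34 to 2.75 and from 2.53 to 2.998.

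Other constant genes of the heavy and light chains were mostly near 0. Of 9 listed, 4 were matched and 1, Ighg2c, the constant gene of an IgG class, was tested. It had 68, 28, 18, 52, 27 and 13 counts in ac-WT mice and 29, 94, 85, 76, 59 and 75 in ac-CYB5R3–KO mice. The groups overlapped, with 4 of 6 ac-CYB5R3–KO mice above the highest ac-WT mouse, and the log2 fold change was 0.74 (SE 0.36, adjusted p = 0.355 from edgeR). Ighg1 had 0 counts in each ac-WT mouse and 15, 4, 16, 0, 0 and 6 in ac-CYB5R3–KO mice, 41 counts in all, at least 11.4-fold higher than the 3 counts over the group that a count of 0 allows. This is a bound for these libraries, and Ighg1 did not pass the filter. Without the filter edgeR gave it a log2 fold change of 5.68 (adjusted p = 0.20). Iglc2, a lambda constant gene, had 12, 4, 0, 2, 6 and 1 counts against 19, 7, 13, 9, 5 and 3, and Ighe, the constant gene of IgE, had 0 counts in all 12 libraries. A row with the symbol Ighg (ENSMUSG00000076613), named after its values were seen, had 0, 0, 0, 4, 1 and 2 counts in ac-WT mice and 12, 9, 7, 58, 12 and 14 in ac-CYB5R3–KO mice, and it did not pass the filter. Reads of near-identical constant genes can be divided between such rows.

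The variable segments, of which a B cell uses 1 for each kind of chain, were not named in the selection. A kappa segment and Igkc are parts of 1 transcript, however, so the kappa counts are not independent of the selection. Of 67 segments with a symbol, 44 had at least 1 count and none passed the filter. Over these, ac-WT mice 1 to 6 had 8, 4, 5, 11, 26 and 7 counts, and ac-CYB5R3–KO mice 1 to 6 had 83, 102, 81, 85, 36 and 10. ac-CYB5R3–KO mice 1 to 5 were above every ac-WT mouse, whereas ac-CYB5R3–KO mouse 6, the lowest of its group in Igkc, was below ac-WT mice 4 and 5. The segments of the kappa chain had 51 counts over all ac-WT hearts and 292 over all ac-CYB5R3–KO hearts, those of the lambda chain 9 and 69, and those of the heavy chain 1 and 36. The reads were spread over 3 to 15 segments in an ac-WT heart and over 4 to 28 in an ac-CYB5R3–KO heart. The number of segments seen rises with the number of reads, so these ranges are not compared further.

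**Figure D3:**
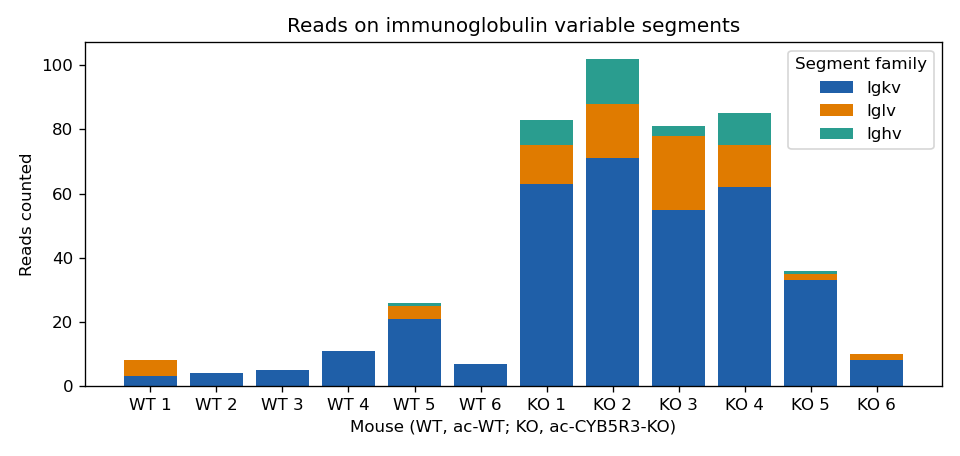
Reads counted on immunoglobulin variable segments (vertical axis) in each of 12 hearts, stacked by the kappa (Igkv), lambda (Iglv) and heavy chain (Ighv) families. ac-CYB5R3–KO mice 1 to 4 hold 81 to 102 reads, ac-CYB5R3–KO mice 5 and 6 hold 36 and 10, and ac-WT mice hold 4 to 26.

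The segments with most reads differed between mice. The 3 with the highest mean expression were Iglv1, Igkv8-30 and Igkv4-57-1. Iglv1 had 6, 14, 18, 10, 0 and 2 counts in ac-CYB5R3–KO mice and 4, 0, 0, 0, 2 and 0 in ac-WT mice. Igkv8-30 had 19 of its 27 counts in ac-CYB5R3–KO mice in mouse 2, and Igkv4-57-1 had 20 of its 28 in mouse 3. Each of the 6 ac-CYB5R3–KO mice had another leading segment, which took 14.1% to 40.0% of the segment reads of that mouse. The leading segments held only 4 to 20 reads in these mice and 1 to 7 in ac-WT mice, too few to compare mice or groups by.

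The genes whose expression was most like that of Igkc within the groups were ranked by the same r over the 12 libraries, with the chosen set, and so Igj, left out. Gm5874 (r = 0.943) was first among these, and between the groups edgeR gave it a log2 fold change of 0.38 (SE 0.19 and adjusted p = 0.362). ENSMUSG00000095079, which the tables used here pair with no symbol, was next (r = 0.942). It may be one of the immunoglobulin genes that were left without an identifier here, such as Igha, which these tables cannot settle. It had 8, 0, 34, 143, 146 and 121 counts in ac-WT mice 1 to 6 and 539, 1006, 846, 847, 636 and 232 in ac-CYB5R3–KO mice 1 to 6. The groups did not overlap, and the order of the mice was close to that of Igkc, with ac-WT mice 1 and 2 and ac-CYB5R3–KO mouse 6 lowest in their groups. Its log2 fold change of 2.99 (SE 0.65) did not pass the threshold (adjusted p = 0.141 from edgeR). Masp1 (r = 0.892), a gene of the lectin pathway of complement, was higher by 1.07 on the log2 scale without passing the edgeR test (SE 0.34 and adjusted p = 0.203), and the other 5 genes of the 8 ranked had log2 fold changes between 0.040 and 0.26.

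None of the other B cell genes that were tested was called. Of 20 listed, 11 were tested, 3 higher and 8 lower, but 8 higher and 3 lower under total-count scaling. In edgeR 0 were called and 0 had an unadjusted p under 0.05, and DESeq2 called 0. Their median log2 fold change was -0.10, against -0.0074 over all genes. The highest were Cd72, a B cell inhibitory receptor gene (6.35 ± 3.72 CPM and 8.21 ± 1.06 CPM, SD, n = 6 each; log2 fold change 0.36, adjusted p = 0.635 from edgeR), and Blnk, an adaptor of B cell receptor signaling (4.85 ± 1.92 CPM and 4.54 ± 0.959 CPM; log2 fold change -0.10, adjusted p = 0.872 from edgeR). Macrophages also express both.

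Other plasma cell genes included the transcription factors and the secretory machinery that plasma cells use in high amounts and heart cells use as well. Of 14 listed, 12 were tested, 4 higher and 8 lower, but all 12 higher under total-count scaling. In edgeR 0 were called and 1 had an unadjusted p under 0.05, and DESeq2 called 0. The highest were Txndc5, a disulfide isomerase gene (log2 fold change 0.33, SE 0.23, adjusted p = 0.515 from edgeR), and Xbp1, a transcription factor gene of the secretory pathway (-0.038, SE 0.12, adjusted p = 0.897). The gene with an unadjusted p under 0.05 was Tent5c, named after its values were seen, at 1.95 to 8.77 CPM in ac-WT and 3.71 to 23.3 CPM in ac-CYB5R3–KO hearts (log2 fold change 1.38, SE 0.49, adjusted p = 0.234 from edgeR). Its highest ac-CYB5R3–KO hearts were mice 3, 6 and 1 (23.3, 16.8 and 10.9 CPM) and its highest ac-WT heart mouse 2 (8.77 CPM). The red blood cell gene Alas2 was highest in the same mice (57.6, 40.8 and 23.9 CPM, and 22.4 CPM in ac-WT mouse 2), whereas Igkc was lowest of its group in ac-CYB5R3–KO mouse 6. The part of red blood cells in the value of Tent5c was not tested. Tnfrsf17, the receptor of plasma cells for survival factors, was at 0.0833 to 0.280 CPM in ac-WT and 0.0203 to 0.176 CPM in ac-CYB5R3–KO hearts and did not pass the filter.

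**Figure D4:**
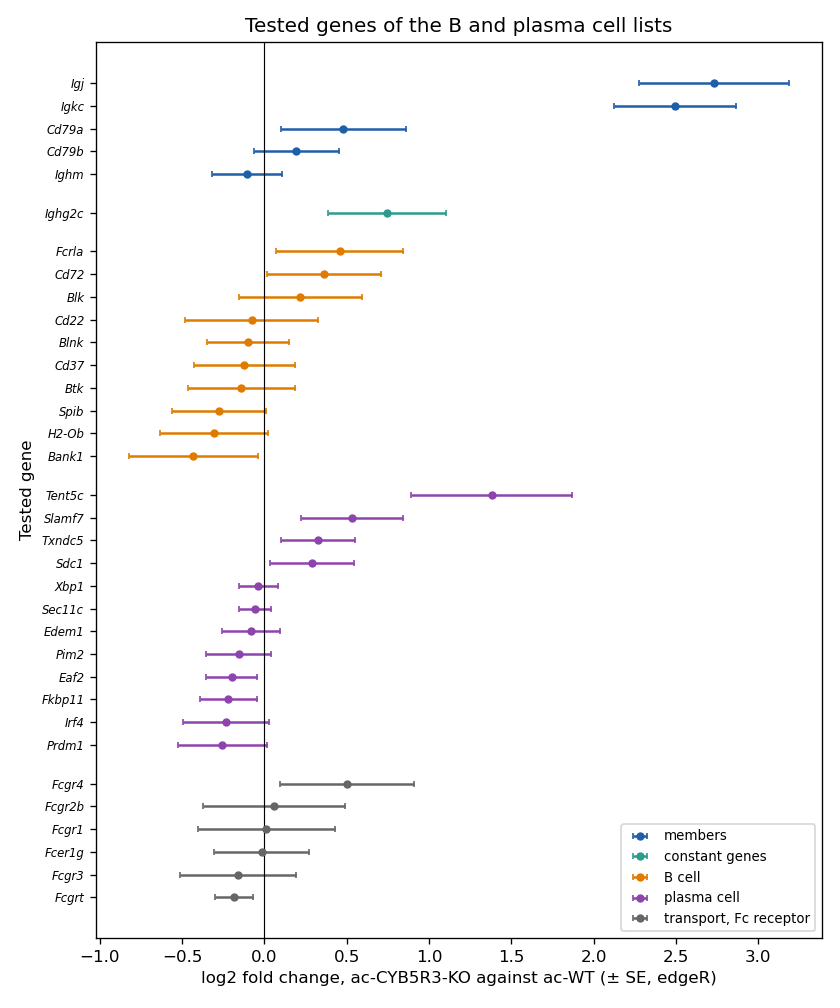
log2 fold change of ac-CYB5R3–KO against ac-WT hearts (horizontal axis, ± SE from edgeR) for the tested genes, but 1 of the B cell list, of the chosen set and of the constant gene, B cell, plasma cell, and transport and Fc receptor lists. Igj (2.73) and Igkc (2.49) lie to the right of all others, and Tent5c (1.38) and Ighg2c (0.74) come next.

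Of the factors that draw B and plasma cells or keep them alive, none of those tested was called. Of 8 listed, 7 were matched and 4 tested, 1 higher and 3 lower, with 0 called by edgeR, 1 at an unadjusted p under 0.05 (Tnfsf13b, which encodes BAFF, lower) and 0 called by DESeq2. Cxcl12, a chemokine that holds plasma cells in bone marrow, had an edgeR log2 fold change of -0.31 with an SE of 0.16 (adjusted p = 0.391), and Il6 one of 0.60 (SE 0.33, adjusted p = 0.416 from edgeR). Cxcl13, a chemokine that draws B cells and that was named after its values were seen, did not pass the filter. It had 5, 1, 3, 4, 3 and 2 counts in ac-WT mice and 9, 22, 22, 2, 3 and 158 in ac-CYB5R3–KO mice, of which 4 were above the highest ac-WT mouse in CPM. Of the genes that carry or bind immunoglobulin, 6 of 8 were tested, 3 higher and 3 lower, with 0 called by edgeR, 0 at an unadjusted p under 0.05 and 0 called by DESeq2. This tally was 5 higher and 1 lower under total-count scaling, 1 and 5 without ac-WT mice 2 and 3, and 0 and 6 with 1 surrogate variable. Fcgrt, which encodes the neonatal Fc receptor, had an edgeR log2 fold change of -0.19 with an SE of 0.11 (adjusted p = 0.462), and Fcgr3, a receptor for IgG, one of -0.16 (SE 0.35, adjusted p = 0.853 from edgeR). Pigr, the receptor that carries joined IgA and IgM across epithelia, had 0 counts in every ac-CYB5R3–KO heart and at most 0.0699 CPM in an ac-WT heart, and Fcamr had 0 counts in all hearts.

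Marker lists of other cells and tissues were summed beside these results. The cartilage list separated the groups, with a summed level of 8.98 to 55.6 CPM in ac-WT and 72.2 to 152 CPM in ac-CYB5R3–KO hearts. Of its 8 tested genes 5 were higher and 3 lower (6 and 2 under total-count scaling). In edgeR 0 were called and 5 had an unadjusted p under 0.05, all higher, and DESeq2 called 4. Comp, which tendon also expresses, went from 16.3 ± 11.8 to 73.5 ± 21.9 CPM (SD, n = 6 each; log2 fold change 2.17, adjusted p = 0.144 from edgeR), and its lowest ac-CYB5R3–KO heart was mouse 6, as in Igkc. Col11a1, a cartilage collagen gene named after its values were seen, was at 0.278 to 7.82 CPM in ac-WT and 21.2 to 36.5 CPM in ac-CYB5R3–KO hearts without overlap (log2 fold change 2.68, SE 0.59, adjusted p = 0.145 from edgeR). Col2a1, the defining cartilage collagen gene, was low in all hearts, at 0.111 ± 0.147 CPM in ac-WT and 0.602 ± 0.266 CPM in ac-CYB5R3–KO mice (SD, n = 6 each), with 5 of 6 ac-CYB5R3–KO mice above the highest ac-WT mouse (log2 fold change 2.34, SE 0.60, adjusted p = 0.173 from edgeR). The 3 lower genes were Cnmd, Col11a2 and Col9a3 (edgeR log2 fold changes -0.86, -0.68 and -0.11). Whether cartilage was present in these hearts, and its part in the values of Igkc and Igj, was not tested.

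The summed levels of the blood and immune cell lists overlapped between the groups, although single genes in them could lie apart. The red blood cell list overlapped between groups, at 226 to 4491 CPM in ac-WT and 1329 to 12240 CPM in ac-CYB5R3–KO hearts. All 6 of its tested genes were higher, 0 of them called by edgeR, 4 at an unadjusted p under 0.05 and 1 called by DESeq2. In ac-CYB5R3–KO mouse 6, the lowest of its group in Igkc and Igj, the Alas2 level was 40.8 CPM, the second highest of the 12 hearts. The T and NK cell list was at 3.91 to 9.76 CPM and 6.39 to 11.4 CPM, with 9 of 12 tested genes higher. In edgeR 0 of these were called, 4 were higher and 1 lower at an unadjusted p under 0.05, and DESeq2 called 3. The 4 higher were Cd8a, Cd3g, Cd8b1 and Cd3d (log2 fold changes 1.42, 1.20, 1.10 and 0.996), and the lower 1 was Gzma (-1.40). Cd8a was at 0.140 to 0.471 CPM in ac-WT and 0.550 to 0.883 CPM in ac-CYB5R3–KO hearts (adjusted p = 0.105 from edgeR). Its groups did not overlap, with every ac-CYB5R3–KO heart above every ac-WT heart, as in 91 of all genes (0.51%). The macrophage list was at 519 to 1886 CPM and 817 to 1369 CPM, with 2 of 12 higher, 0 called by edgeR, 1 lower at an unadjusted p under 0.05 and 1 called by DESeq2. Under total-count scaling 6 of 12 were higher, and 0 of 12 were without ac-WT mice 2 and 3 or with 1 surrogate variable. In the macrophage list, each group's summed values overlapped with those of the other. Its lowest values were in ac-WT mice 1, 2 and 3, which were also the lowest in Igj. The thymus list was at 3.90 to 4.62 CPM and 2.45 to 4.29 CPM, the airway list at most at 0.833 CPM, and the neutrophil list at 5.76 to 13.4 CPM and 4.62 to 22.3 CPM. Only 2 of 8 thymus, 1 of 12 airway and 4 of 9 neutrophil genes were tested. Of these 0 were called by edgeR or DESeq2 and 0 had an unadjusted p under 0.05. The untested neutrophil genes had these counts over all ac-WT and all ac-CYB5R3–KO hearts: Ltf 11 and 60, Ngp 7 and 48, Camp 5 and 20, Mmp8 62 and 68, and Ly6g 7 and 5. The part of blood and of immune cells in the result was not tested.

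**Figure D5:**
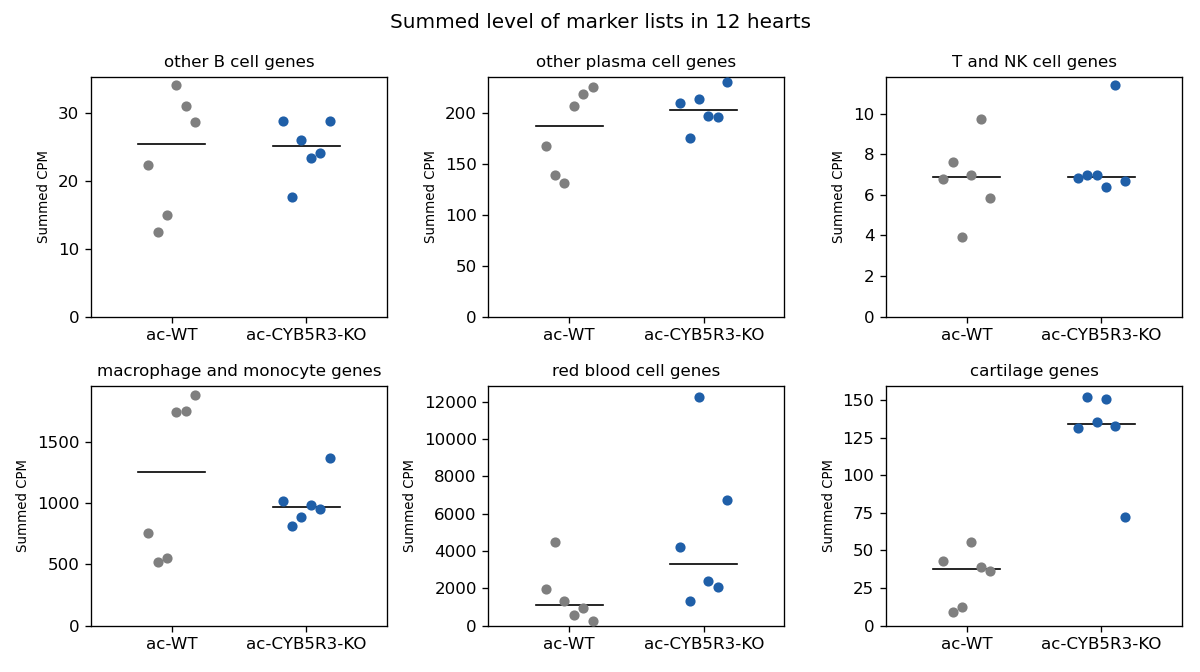
Summed expression (CPM, vertical axes) of 6 marker lists in each of 6 ac-WT (gray) and 6 ac-CYB5R3–KO mice (blue), with the median as a line. The cartilage list lies apart between groups (8.98 to 55.6 and 72.2 to 152 CPM), and the B cell, plasma cell, T and NK cell, macrophage and red blood cell lists overlap.

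The libraries held between 43393183 and 53754284 counts on genes. The TMM factors of ac-WT mice 2 and 3 (0.570 and 0.723) stood below those of the other 10 libraries (0.988 to 1.22), and without both libraries the log2 fold change was 2.27 for Igkc and 2.43 for Igj, with Cd79b at -0.060. Cyb5r3 was at 81.9 to 185 CPM in ac-WT and 42.0 to 67.4 CPM in ac-CYB5R3–KO hearts without overlap, and the cardiomyocyte list summed to 23050 to 53840 CPM and 17090 to 28810 CPM. Of its 10 genes 8 were lower (5 under total-count scaling), 4 of them at an unadjusted p under 0.05, with 0 called by edgeR and 2 by DESeq2, and no gene of the fat cell list passed the filter. A count of 3 corresponded to 0.0507 to 0.105 CPM, so a gene below that level could not be told from 0 in 1 heart.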

How the data were processed

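RNA of whole hearts was sequenced by the authors with a stranded total RNA kit. They trimmed adapters with fastq-mcf and Trimmomatic and mapped the reads with STAR to mm9, while the submitters' processing notes name STAR, featureCounts and GRCm39. The strand setting and annotation are not given in the sources used here, so reads of overlapping or near-identical genes could be divided. The authors deposited raw counts of reads per gene for 12 libraries and 53700 Ensembl identifiers, without normalization. Symbols were found for 31027 identifiers (57.8%). Coordinates are from the GENCODE annotation of NCBIM37.

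Counts were filtered by filterByExpr (minimum count 10), scaled by TMM and tested with edgeR (version 4.0.16, R 4.3.3; quasi-likelihood, two-sided) with no covariate, with Benjamini-Hochberg adjustment over 17847 genes and a threshold of 0.05. The labels give 1 mouse per library. Alternatives were DESeq2 (version 1.42.0), total counts, no filter, at least 10 counts in every library, the replicate block, 1 surrogate variable (sva version 3.50.0), leaving out each mouse, and, added after the data were seen, leaving out haemoglobin genes. Floors are 3 counts and cover counting error only.

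The genes and lists were chosen with earlier results of these data known. Of 160 listed genes 150 were matched. Values of 1 gene of the B cell list are not reported here. A planned test of the share of Igha among heavy chain counts was not run, because Igha was not matched. Named were the 8 genes, genes of each list with an adjusted p under 0.05 or else its 2 highest (given only for lists of B and plasma cells, constant genes, survival factors and Fc receptors, and in part for cartilage), the 3 highest variable segments and the 8 genes most like Igkc, of which 5 are given by their range.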

Additional observations from a re-analysis of the deposited data

Results flagged for a closer look

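A check for a mouse far from the others looked at 30 sets of values, each of 1 gene in 1 group. These sets did not cover all the genes named above. Of the 30, 2 held such a mouse, and chance gives about 1 in 20. Both were genes like Igkc in ac-CYB5R3–KO mouse 6, which was also the lowest of its group in Igkc and Igj. Both had been picked for following Igkc within the groups, so a low value in that mouse follows from the choice. Trip4, a transcription coactivator gene, was at 13.3 CPM there and in the 5 others of that group from 15.4 to 16.7 CPM. ENSMUSG00000102038, a gene without a symbol in the tables used here, was at 1.20 CPM there and at 1.496 to 1.64 CPM in the others. Among genes that were not flagged, Cxcl13 was high in ac-CYB5R3–KO mouse 6 (3.22 CPM, at most 0.378 CPM in the rest of the group). Ighg was high in ac-CYB5R3–KO mouse 4 (1.14 CPM, at most 0.285 CPM in the rest of the group).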

How the results depend on the processing

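The log2 fold changes of Igkc (2.17 to 2.75 over 20 alternatives) and Igj (2.31 to 2.998 over 19, since at least 10 counts in every library removed it) kept their direction, but the call at an adjusted p under 0.05 was lost in 11 and 14 of them. Igkc lost its call without ac-WT mice 2, 3 or 5 or ac-CYB5R3–KO mice 1, 2, 3, 4 or 5 (edgeR adjusted p 0.0532 to 0.131), and Igj without each mouse other than ac-WT mouse 4 and ac-CYB5R3–KO mouse 6 (0.0527 to 0.147). The genes called among the 5 were 2, and 1 under total counts, 1 with at least 10 counts in every library, 0 with the replicate block, 0 without ac-WT mice 2 and 3, 0 with 1 surrogate variable, and 0 to 2 with each mouse left out. Over all genes 18 were called, against 451 by DESeq2, 8 under total counts, 35 without a filter, 2 with the replicate block, 3 with 1 surrogate variable, 7 without ac-WT mice 2 and 3, and 2 to 38 with each mouse left out, the highest without ac-WT mouse 4. The cause of these differences was not tested. With the replicate block the log2 fold change was 2.55 for Igkc (edgeR adjusted p = 0.10) and 2.81 for Igj (0.127). The replicate numbers mark different mice, and deviations of same-numbered mice had a mean correlation of 0.139 (-0.14 to 0.359, 4 of 6 pairs over 0.1) against -0.027 over the other 30 pairs; 4 ac-WT mice correlated best with their own number. Ighm turned to 0.10 under total counts and 0.036 without ac-WT mouse 4 (-0.20 to 0.036 over each mouse left out). Cd79b turned to -0.14 when 1 surrogate variable was added and to -0.060 without ac-WT mice 2 and 3, all with adjusted p of 0.842 or more. Cd79a stayed higher and uncalled (0.28 to 0.85). Alternatives of the Igha share were not run. Counts below 40 in Cd79a, Ms4a1 and Mzb1 limit what could be detected in them.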
